A study of Mus musculus with 40 samples.

Results

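The comparison of HH with LH asked whether the diet of the dam left a mark on liver DNA methylation in male offspring that all ate a high fat (HF) diet after weaning. HH animals were born to HF dams and LH animals to dams on a low fat (LF) diet, and the members were chosen by these 2 diet labels alone. They were 10 HH and 10 LH animals, 20 of the 39 animals of the series with values. All were C57BL/6J males aged 9 weeks, and the DNA came from whole liver. The dams had received their diet from before mating until weaning, and the males of a cage were then divided between the post-weaning diets. The main fat of the HF diet was coconut oil. The dam's diet and the litter an animal came from cannot be told apart, because a litter had 1 dam and the labels give no litter. In whole liver, a different mix of cell types and a different methylation level within cells cannot be told apart either, and expression values were not used here, so the tissue label was not checked against marker genes.

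Methylation of the cytosine in a CpG dinucleotide is copied to the daughter strand at cell division and can persist after the signal that set it has ended. CpG-dense gene starts are usually unmethylated in all tissues, whereas CpG-poor starts are often methylated where the gene is silent and less so where it is used. In certain regions of imprinted genes the copy from 1 parent is methylated and the other is not. The loci assayed belong to genes of sterol synthesis, nuclear receptors that heterodimerise with RXR, glucose production, leptin, NF-kB and imprinting.

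Bisulfite treatment turns unmethylated cytosine into uracil and leaves methylated cytosine, so the methylation level of a CpG is the percent of its reads that kept a C. No conversion control was used here. A cytosine that escaped conversion, or a miscalled base, therefore cannot be told apart from a methylated one, which matters most at the lowest levels. Amplicons covered 300 CpGs in the table, of which 282 had at least 10 reads in at least 6 animals of each group and were tested. They fell into 21 loci, and an animal's locus level is the average of its tested CpGs there. Levels are given as mean ± SD over animals, 10 per group unless another number is stated. CpGs are numbered along the chromosome (Pck1_2 is the second CpG of the Pck1 locus). The median number of reads per CpG ranged from 4407 to 13976 among HH animals and from 4480 to 12920 among LH animals, and did not differ between the groups beyond the spread of animals (mean 7700 ± 3258 against 6835 ± 2774, SD, n = 10 each, permutation p = 0.527). Between 265 and 294 CpGs had a value in an HH animal and between 231 and 297 in an LH animal, the fewest in LH replicate 8. A level was missing for LH replicate 5 at Nr1i2, LH replicate 8 at Plagl1, Nr1h3 and Rxra, LH replicate 10 at Nfkb1, HH replicate 1 at Insig2, HH replicates 6, 7 and 8 at Pparg, and 3 animals at the Irs1 UTR named with it. At 145 of the 282 CpGs every methylated and total count of the 20 animals was an even number. Whether a fragment was counted more than once there was not tested, and intervals from read counts would then be too narrow. At the median locus the spread between animals was 4.81 times the spread from counting the reads as deposited, and 4.02 times with the even counts halved.

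The upstream sequences below belong to 4 loci before a gene start at which methylation was intermediate or high. Plagl1 is not printed. Its CpGs lie before the start of a protein-coding transcript, but 8 of the 17 are in a non-coding exon of the gene. The short sequences are the contexts of CpGs with the smallest p-values. All sequences are from NCBIM37, 5′ to 3′ on the strand of the gene. The measured CpGs are in capitals in the upstream windows and only the named CpG in the short contexts.
Pck1 upstream (chr2:172978425-172978548, plus strand): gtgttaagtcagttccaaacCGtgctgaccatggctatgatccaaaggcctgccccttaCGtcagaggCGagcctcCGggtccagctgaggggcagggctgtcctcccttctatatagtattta
Nr1i3 upstream (chr1:173143365-173143537, plus strand): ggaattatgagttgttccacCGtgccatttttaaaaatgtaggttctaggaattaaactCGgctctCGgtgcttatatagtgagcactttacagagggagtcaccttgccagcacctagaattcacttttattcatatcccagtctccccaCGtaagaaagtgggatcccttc
Lep upstream (chr6:29009935-29010090, plus strand): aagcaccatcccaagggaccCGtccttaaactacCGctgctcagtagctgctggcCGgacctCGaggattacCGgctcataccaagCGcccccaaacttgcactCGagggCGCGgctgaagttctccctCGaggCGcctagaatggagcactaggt
Nr1i2 upstream (chr16:38296336-38296443, minus strand): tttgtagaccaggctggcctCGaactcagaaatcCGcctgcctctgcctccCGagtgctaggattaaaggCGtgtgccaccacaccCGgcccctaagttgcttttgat
Srebf1_10 (chr11:60033892-60033917, minus strand): tcgcacgtccggCGagggcgcttggc
Srebf1_14 (chr11:60033918-60033943, minus strand): ggggctccggcgCGgcctgtgcaggg
Srebf1_23 (chr11:60033985-60034010, minus strand): acagacactggcCGagatgtgcgaac
Nfkb1_3 (chr3:135353849-135353874, minus strand): cgtctccgcgggCGggaacgggaagc
Rxra_15 (chr2:27532377-27532402, plus strand): accaccgcgggcCGccgggtttttgg
Nr1h2_2 (chr7:51809248-51809273, minus strand): tcgctcagcaagCGctgttgcttcga

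In the Pck1 window the second CpG lies inside TTACGTCA, the letters of the cAMP response element of this promoter, 65 bases before the annotated gene start. On either strand these 8 letters occurred in 0.499% of 32851 RefSeq promoter windows of 300 bases (GRCm38.p6). The Nr1i2 window reads differently from the others. The 26 bases centred on its CpGs occurred 1 time in the genome for Nr1i2_1, 49 times for Nr1i2_2, 430 times for Nr1i2_3, 23006 times for Nr1i2_4 and 37714 times for Nr1i2_5, exact matches on both strands counted. The same count was 1 at each CpG of Pck1, Nr1i3, Lep, Rxrg, Plagl1, Peg3 and the Irs1 coding exon. Because the Nr1i2 gene lies on the minus strand, the printed sequence starts with Nr1i2_5.

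No CpG and no locus differed between HH and LH after adjustment. By Student's t-test, two-tailed, or an exact permutation test where a group had missing values, 0 of 282 CpGs had a Benjamini-Hochberg adjusted p under 0.05 (0% called, smallest adjusted p = 0.858). Coverage minima of 1 and 100 reads kept exactly the same values and could change nothing, and each of the other 8 alternatives of test, filter or depth also gave 0, among them the Wilcoxon test, limma and a quasi-binomial model. Without adjustment 7 CpGs, or 2.48% of those tested, had a p under 0.05. Of these, 4 were higher and 3 lower in HH. Over all tested CpGs 155 were higher and 127 lower in HH, and the median absolute difference was 0.24 percentage points. Differences over 1 point occurred at 45 CpGs, over 2 points at 18 and over 4 points at 3, the last all in Pck1. Values of HH and LH animals overlapped at each of the 282 CpGs.

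At the locus level 0 of 21 loci passed the adjusted threshold (0% called, smallest adjusted p = 0.68) and 0 had an unadjusted p under 0.05 (0%). The groups overlapped at each of the 21 loci. The level was higher in HH at 12 loci and lower at 9. How small a difference the data could hold depended on the level of the locus. At the 12 loci with a mean under 2%, the 95% interval of the difference reached 0.14 points to either side at the median locus, and 0.466 at the widest other than Ebp. At the 9 loci of 2% or more it reached 3.44 points at the median locus, from 0.429 at Nr1i2 to 5.07 at Pck1.

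**Figure D1:**
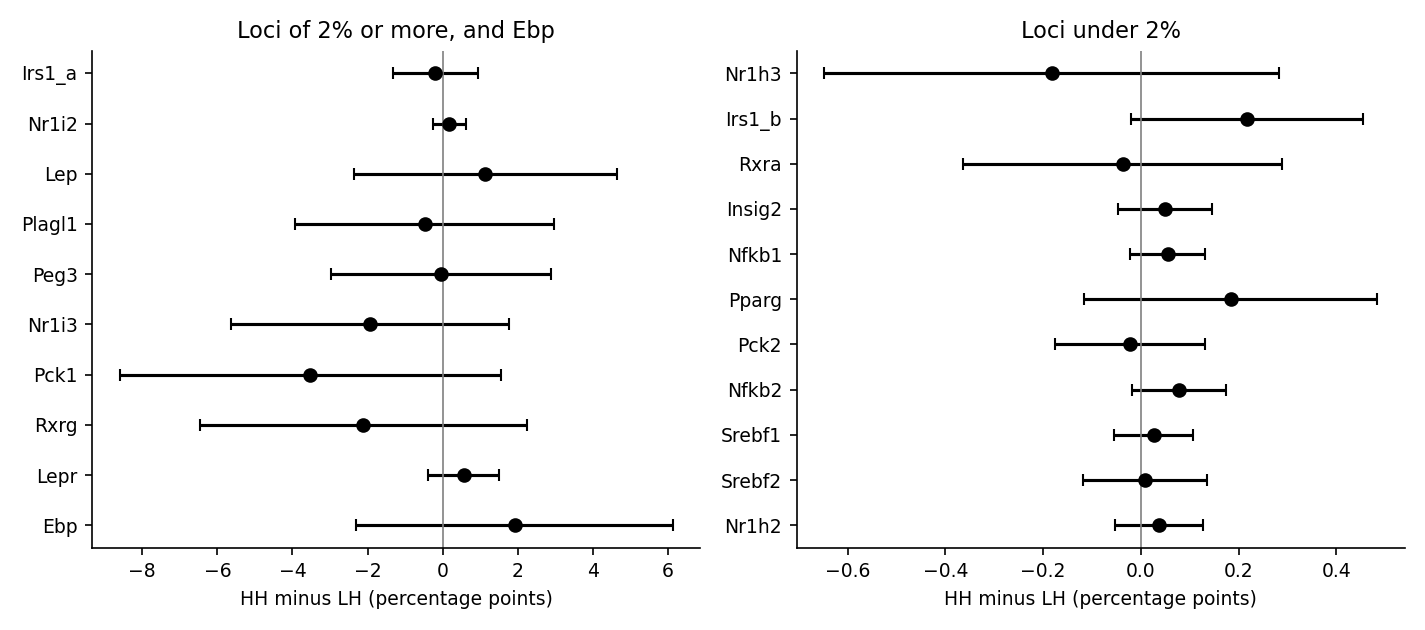
Difference HH minus LH in locus level (points) with its 95% interval from the pooled SD (bars), in percentage points, for loci of 2% or more with Ebp (left) and loci under 2% (right, a narrower scale). Each interval includes 0, the widest on the left being that of Pck1, from -8.60 to 1.55 points.

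Among the genes of glucose production and insulin signalling, Pck1 (ENSMUSG00000027513.5), which encodes the cytosolic phosphoenolpyruvate carboxykinase of gluconeogenesis, had the largest difference of the 21 loci. Its 5 CpGs lie at chr2:172978445-172978561, 4 before the gene start and 1 in the UTR. The Pck1 level ran from 20.1% to 29.3% in HH with a median of 24.4%, and from 20.05% to 42.5% in LH with a median of 25.8%. The lower ends of both groups were alike, and the highest LH animals, replicate 3 at 42.5% and replicate 6 at 35.5%, lay above every HH animal, as did replicates 9 and 10 at 30.6% and 31.2%. The mean was 24.7% ± 3.47 in HH and 28.2% ± 6.80 in LH (SD, n = 10 each), a difference of -3.53 points with a 95% interval of -8.60 to 1.55 (p = 0.161, adjusted p = 0.68). Leaving out LH replicate 3 brought it to -1.93 points. All 5 CpGs were lower in HH, with differences from -1.64 points at Pck1_1 to -4.48 points at Pck1_5, the largest of any CpG. At Pck1_5 the level was 29.0% ± 3.61 in HH and 33.4% ± 7.83 in LH (p = 0.117, adjusted p = 0.858). At Pck1_2, inside the cAMP response element, it was 26.2% ± 4.27 in HH and 30.2% ± 7.52 in LH (p = 0.158, adjusted p = 0.858). Along the locus both groups had their lowest level at Pck1_1 and their highest at Pck1_5.

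Pck2, which encodes the mitochondrial enzyme (10 CpGs at chr14:56159093-56159211, 9 in the UTR), was close to unmethylated, at 0.744% ± 0.11 in HH and 0.767% ± 0.202 in LH. Irs1 encodes an adaptor that passes on the signal of the insulin receptor, and its 2 loci stood at opposite ends of the scale. The 10 CpGs in its coding exon (Irs1_a, chr1:82285756-82285857) had 94.5% ± 1.22 in HH and 94.7% ± 1.17 in LH, a difference of -0.19 points with an interval of -1.32 to 0.929. The 15 CpGs in its UTR (Irs1_b, chr1:82287315-82287497) had 1.10% ± 0.182 in 9 HH animals and 0.883% ± 0.273 in 8 LH animals. This difference of 0.22 points had the smallest p of the 21 loci (exact permutation p = 0.0716, adjusted p = 0.68, interval -0.02 to 0.454). The 9 HH animals ran from 0.867% to 1.35%, all above the LH median of 0.861%, while the highest animal of all, at 1.43%, was LH replicate 10. The median depth was only 342 reads per CpG here. HH replicate 7 and LH replicates 6 and 8 had no level at this locus.

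RXR forms pairs with the other nuclear receptors assayed, and within this group no locus differed between HH and LH. Rxrg encodes the gamma form of RXR, and its 10 CpGs (chr1:169548431-169548578, 8 in the UTR and 2 in an intron) had 12.05% ± 1.52 in HH and 14.2% ± 6.36 in LH, a difference of -2.11 points with an interval of -6.46 to 2.23 (p = 0.321, adjusted p = 0.68). HH animals ran from 9.47% to 14.5% with a median of 12.5%, and LH animals from 4.49% to 27.0% with a median of 13.9%. LH replicates 8 and 2, at 27.0% and 21.0%, were the highest animals, and LH replicates 6 and 1, at 4.49% and 6.996%, lay below every HH animal. The animals at both ends were read least deeply, with a median of 123 reads per CpG in LH replicate 8 and 398.5 in LH replicate 6, against 505 in HH replicate 10 and at least 12559 in each of the others. With at least 1000 reads required, which leaves these 3 animals out, the levels were 12.2% ± 1.57 in 9 HH and 13.8% ± 3.86 in 8 LH animals, a difference of -1.60 points with an interval of -4.58 to 1.37. All 10 CpGs were lower in HH, with differences of -2.69 to -1.18 points, and 1 of the 10 HH animals was above the LH median. Leaving out LH replicate 8 brought the difference to -0.68 points.

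Nr1i3 encodes CAR, a receptor that switches on genes of drug metabolism in the liver. Its 4 CpGs lie between 585 and 716 bases before the gene start. The level ran from 29.2% to 36.4% in HH (median 31.7%) and from 26.0% to 42.6% in LH (median 33.8%). As at the other loci of 2% or more, the LH values reached beyond the HH range, here at both ends. The means were 32.1% ± 2.51 in HH and 34.0% ± 4.98 in LH, a difference of -1.93 points with an interval of -5.64 to 1.78 (p = 0.288, adjusted p = 0.68), and all 4 CpGs were lower in HH, with differences of -2.33 to -1.28 points.

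Nr1i2 encodes PXR, the other xenobiotic receptor of this group. Its 5 CpGs, 1446 to 1512 bases before the gene start and in the repeated sequence described above, had 94.2% ± 0.496 in 10 HH animals and 94.0% ± 0.374 in 9 LH animals. The difference was 0.18 points with an interval of -0.25 to 0.609 (exact permutation p = 0.391, adjusted p = 0.68). Nr1i2_2 had the highest mean of the 282 CpGs, 96.8% ± 0.649 in HH and 96.8% ± 0.41 in LH, and Nr1i2_5, the CpG with the most genome copies around it, the lowest of the locus, 87.7% ± 1.18 in HH and 87.3% ± 1.57 in LH. Whether reads of other copies entered these values was not tested.

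The remaining receptor loci were near 1% to 2%. Nr1h3 encodes LXR alpha, a sensor of oxysterols, and had 1.57% ± 0.534 in 10 HH and 1.75% ± 0.412 in 9 LH animals (18 CpGs at chr2:91035011-91035389, exact permutation p = 0.421). Nr1h2, which encodes LXR beta, had 0.698% ± 0.105 in HH and 0.66% ± 0.086 in LH (17 CpGs at chr7:51809249-51809413). Rxra, whose product is the main RXR of liver, had 0.899% ± 0.345 in 10 HH and 0.936% ± 0.326 in 9 LH animals (14 CpGs at chr2:27532281-27532408, median 222 reads). Pparg encodes a receptor that drives fat storage and had 0.862% ± 0.14 in 7 HH and 0.678% ± 0.351 in 10 LH animals (8 CpGs at chr6:115311324-115311461, median 557 reads per CpG). LH replicate 10 was at 0 there, with 776 reads summed over the CpGs and a median of 97, CpGs without reads included. Taken as separate reads, they allow a level of up to 0.387%, or 0.773% with these even counts halved. Both limits are too low where a read covers several CpGs, because it is then counted at each.

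Sterol genes were close to unmethylated in both groups, with 1 exception in 1 animal. Srebf1, the master regulator of fatty acid synthesis genes, had 0.749% ± 0.0865 in HH and 0.723% ± 0.0848 in LH (22 CpGs at chr11:60033830-60034020, 17 in an intron and 5 in a coding exon, median 42074 reads). The interval of its difference, -0.05 to 0.107 points, was among the narrowest. Srebf2, which regulates cholesterol synthesis, had 0.718% ± 0.117 and 0.709% ± 0.152 (15 CpGs upstream, chr15:81977443-81977562), and Insig2, which holds the SREBP complex in the endoplasmic reticulum, had 0.851% ± 0.0679 in 9 HH and 0.802% ± 0.12 in 10 LH animals (23 CpGs at chr1:123224280-123224493).

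Ebp encodes an isomerase of cholesterol synthesis and lies on the X chromosome, of which a male carries a single copy (11 CpGs in the UTR, chrX:7769933-7770047). HH replicate 1 stood at 20.8%, and the other 9 HH animals ran from 0.607% to 1.03%. The 10 LH animals ran from 0.627% to 1.59%, the highest being LH replicate 5, which had only 1008 reads summed over the CpGs of the locus. In HH replicate 1 each of the 11 CpGs was raised, from 15.4% to 30.5%. Summed over the CpGs, 391605 of its 1864934 reads were methylated, the most reads of any of the 20 animals at Ebp (21.0%, 95% Wilson interval 20.9 to 21.1, counting error only). A read that covers several CpGs is counted at each, which makes this interval too narrow. At 8 of the 11 CpGs all counts were even. The group means were 2.80% ± 6.33 in HH and 0.886% ± 0.278 in LH (difference 1.91 points, interval -2.30 to 6.12, p = 0.353). Without HH replicate 1 the difference was -0.09 points.

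**Figure D2:**
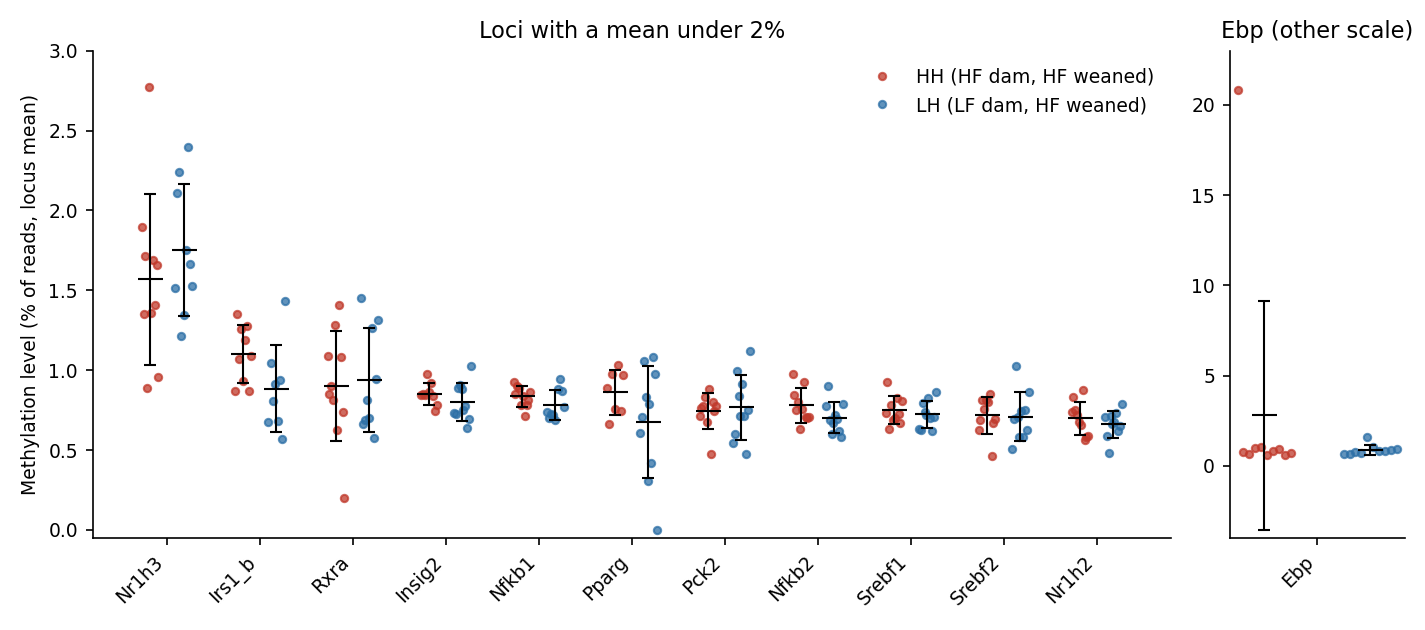
Locus level (percent of reads) of each HH animal (red) and LH animal (blue) at the 12 loci with a mean under 2% or, for Ebp, an HH mean raised by 1 animal; black marks are the mean with SD. The Ebp panel has a scale of its own and shows HH replicate 1 at 20.8% above the other 19 animals, which lie between 0.607% and 1.59%.

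Neither leptin gene passed the test. Lep, which encodes the hormone, had 67.5% ± 3.55 in HH and 66.3% ± 3.89 in LH over 11 CpGs, 151 to 265 bases before the gene start. HH animals ran from 61.7% to 72.7% with a median of 67.2%, and LH animals from 59.6% to 73.0% with a median of 66.7%, so that the ranges nearly coincided. The difference was 1.13 points (interval -2.36 to 4.63, p = 0.505, adjusted p = 0.706), and 10 of 11 CpGs were higher in HH. Leaving out 1 animal gave differences from 0.39 points without LH replicate 10 to 1.87 without LH replicate 2. The profile was uneven in both groups: Lep_3 had the highest level, 84.4% in HH and 83.8% in LH, and Lep_10 the lowest, 54.1% and 53.5%.

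Lepr, which encodes the leptin receptor, had 7.59% ± 0.993 in HH and 7.04% ± 1.03 in LH over 19 CpGs, 9 of them before the gene and 10 in its UTR. The values ran from 5.85% to 9.01% in HH (median 7.61%) and from 5.20% to 8.33% in LH (median 7.14%). The difference of 0.55 points had an interval of -0.40 to 1.504 (p = 0.238, adjusted p = 0.68), with 14 of 19 CpGs higher in HH. Most of the methylation lay in the first CpGs: Lepr_1 had 29.8% ± 4.24 in HH and 25.9% ± 6.48 in LH, whereas the 10 CpGs from Lepr_10 to Lepr_19 were at 1.31% to 3.01% in both groups.

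**Figure D3:**
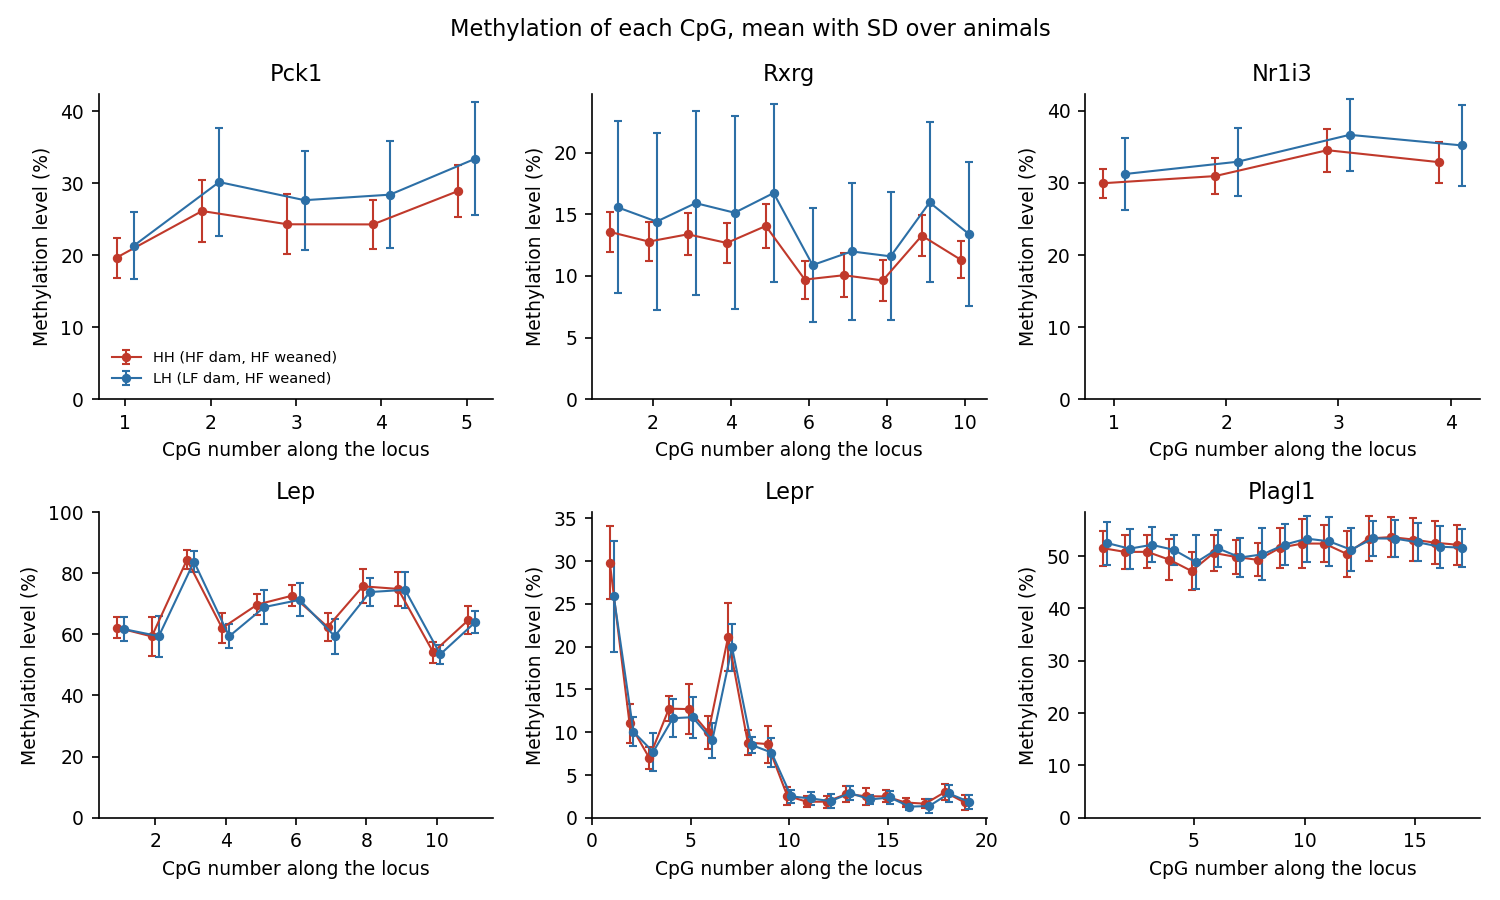
Methylation level (percent) of each CpG along 6 loci in HH (red) and LH (blue), as the mean with SD over animals, against the number of the CpG along the locus. The shape of each profile is shared by both groups, with the wider LH bars visible at Rxrg, where the locus SD was 6.36 in LH and 1.52 in HH.

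NF-kB subunits are transcription factors of the inflammatory response, and both loci were nearly unmethylated. Nfkb1 had 0.836% ± 0.0646 in 10 HH and 0.781% ± 0.0927 in 9 LH animals (19 CpGs at chr3:135353848-135353962, exact permutation p = 0.148). Nfkb2 had 0.781% ± 0.108 in HH and 0.703% ± 0.0979 in LH (18 CpGs at chr19:46379984-46380194), a difference of 0.08 points with an interval of -0.02 to 0.175 (p = 0.108, adjusted p = 0.68). At each of these 2 loci 9 of 10 HH animals were above the LH median, with overlapping ranges.

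The tested imprinted loci, Peg3 and Plagl1, were near the midpoint of the scale in every animal with a value. Peg3, a zinc finger gene expressed from the paternal copy (11 CpGs at chr7:6682916-6683052), had 47.1% ± 2.58 in HH and 47.1% ± 3.57 in LH, a difference of -0.05 points with an interval of -2.97 to 2.88. Plagl1, another paternally expressed zinc finger gene (17 CpGs at chr10:12810372-12810570), had 51.2% ± 3.41 in 10 HH and 51.7% ± 3.70 in 9 LH animals, a difference of -0.49 points with an interval of -3.93 to 2.96 (exact permutation p = 0.77). The 20 animals ran from 41.8% to 52.8% at Peg3, and 19 from 45.3% to 59.6% at Plagl1.

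**Figure D4:**
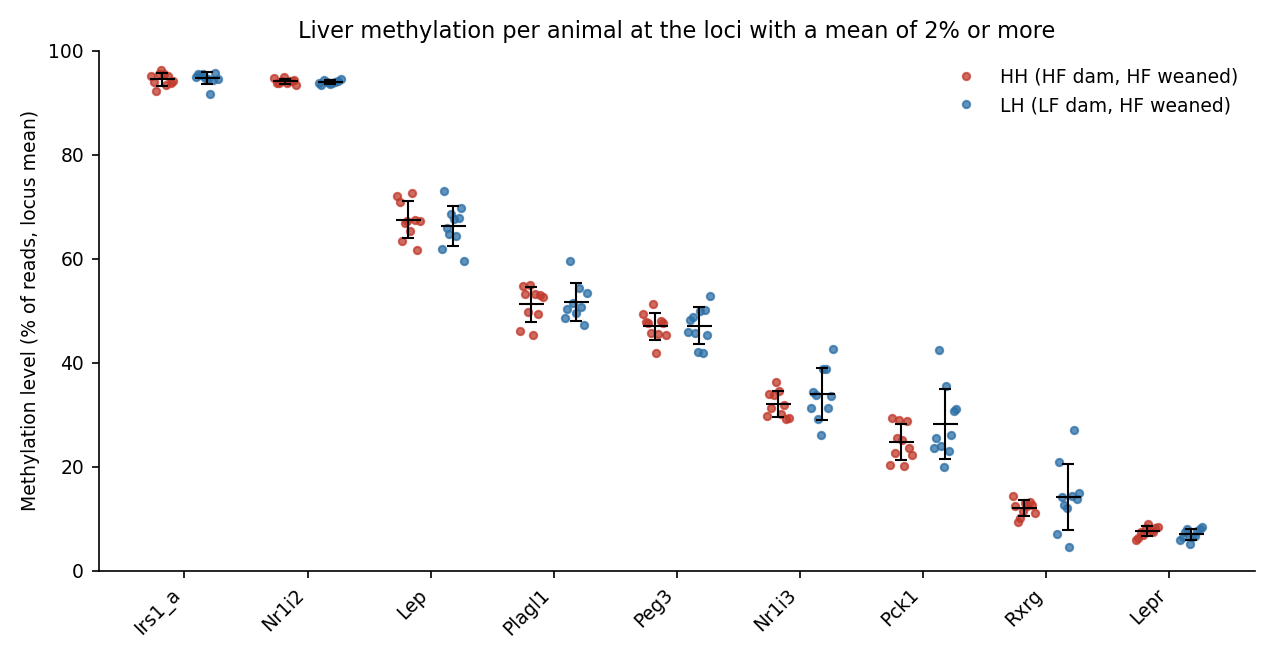
Locus level (percent of reads) of each HH animal (red) and LH animal (blue) at the 9 loci whose mean was at least 2%, ordered by level, with the mean and SD in black. The groups overlap at every locus, from about 94% at Irs1_a and Nr1i2 to about 7% at Lepr. LH points reach beyond the HH points on at least 1 side at each of the 9 loci. HH points also reach beyond the LH points at Irs1_a, Nr1i2, Plagl1 and Lepr.

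The 7 CpGs with an unadjusted p under 0.05 were at low levels, where methylated and unconverted cytosine cannot be told apart here. All 7 had an adjusted p of 0.858, so none is a called difference. Srebf1_10 (chromosome 11, 60033905, intron) had the smallest p: HH ran from 0.318% to 0.949% with a median of 0.616%, LH from 0.258% to 0.610% with a median of 0.387%. The means were 0.613% ± 0.20 and 0.405% ± 0.105 (p = 0.00937), a difference of 0.21 points. Within the same locus, the difference HH minus LH was -0.25 points at Srebf1_14 (p = 0.0409), 0.40 at Srebf1_23 (p = 0.0413) and 0.03 for the locus level.

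Nfkb1_3 was lower in HH, 0.614% ± 0.13 in 10 animals against 0.896% ± 0.36 in 9 LH animals (exact permutation p = 0.0351), although 12 of 19 CpGs of that locus were higher in HH. Lepr_16 had 1.79% ± 0.562 in HH and 1.31% ± 0.415 in LH (p = 0.0456), and Nr1h2_2 had 1.19% ± 0.466 and 0.778% ± 0.402 (p = 0.0493). Rxra_15 was read least deeply, with a median of 222 reads. HH ran from 0 to 1.41% there and LH from 0 to 8.46%, the means being 0.548% ± 0.519 in 10 HH and 2.17% ± 2.74 in 9 LH animals (exact permutation p = 0.0486). LH replicates 10 and 3, at 8.46% (44 of 520 reads methylated) and 4.82% (8 of 166), were the only animals above 2%. No other animal had more than 2 methylated reads at Rxra_15, and all counts there were even. Rxra_10 had the lowest mean of the 282 CpGs, 0.126% ± 0.266 in HH and 0.421% ± 0.689 in LH, with no animal above 4 methylated reads.

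**Figure D5:**
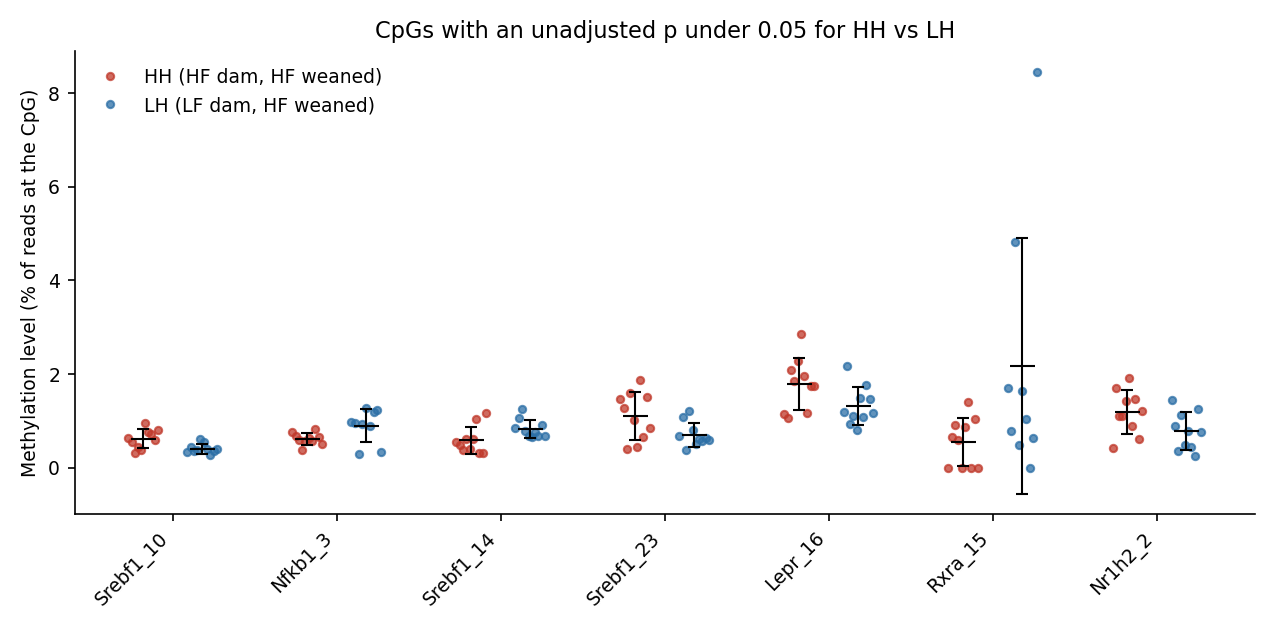
Methylation level (percent of reads) of each HH animal (red) and LH animal (blue) at the 7 CpGs with an unadjusted p under 0.05, ordered by p, with the mean and SD in black. The ranges of HH and LH overlap at all 7, and the 8.46% point at Rxra_15 is LH replicate 10.

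The spread between animals was compared because the LH ranges were wider at several loci. The SD was larger in LH at 13 of 21 loci. The largest ratios of LH to HH were 4.19 at Rxrg, 2.51 at Pparg, 1.98 at Nr1i3, 1.96 at Pck1, 1.84 at Pck2 and 1.76 at Insig2. The mean absolute deviation from the group median was 1.13 points in HH and 4.15 in LH at Rxrg (exact permutation p = 0.0637), 2.09 and 3.71 at Nr1i3 (p = 0.146) and 2.87 and 4.98 at Pck1 (p = 0.244), by the same exact test. At 3 loci of low level the exact permutation p was 0.0655 (Pparg), 0.0807 (Pck2) and 0.105 (Insig2). No locus passed the adjusted threshold (smallest adjusted p = 0.553), and 0 of 21 had an unadjusted p under 0.05 (0%). With at least 1000 reads required, the SD at Rxrg was 2.46 times larger in LH (exact permutation p = 0.285). An exact permutation test of the SD ratio with deviations from the group means gave 1 locus past the adjusted threshold, Ebp, where HH had the larger SD through HH replicate 1 (p = 1.08e-05, the smallest it can give, adjusted p = 0.000227). With deviations from the group medians, a centring chosen after that result was seen, the exact permutation p at Ebp was 0.698. A few animals often stood at the ends: LH replicate 10 was the highest LH animal at 9 loci and the lowest at 2, and HH replicate 5 the highest HH animal at 8. The other animals were the highest of their group at 0 to 4 loci. LH replicate 10 also had the most reads of the LH animals (median 12920 per CpG). Whether these counts go beyond chance, or follow depth, was not tested.

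Offspring of a litter share a dam, and animal numbers were the only label that could group them. The numbers fell into 4 runs in each group (adjacent numbers at most 2 apart). Runs were formed within each group, so no run could hold both HH and LH animals. No label ties a run to a litter. With each run averaged into 1 value, 0 of the 20 loci with 4 runs in each group had an exact permutation p under 0.05, where the smallest p that 4 against 4 allows is 0.0286. Insig2 had 3 runs against 4 and could not pass, its smallest possible exact p being 0.0571. The Pck1 difference over runs was -4.35 points (exact permutation p = 0.114) and that of Lepr 0.27 (exact permutation p = 0.686). Runs differed most at Lepr among the loci other than Ebp: the run means were 5.85%, 6.94%, 8.34% and 8.07% in HH and 6.17%, 7.80%, 6.18% and 7.97% in LH. An estimated 69.9% of the Lepr variance within groups lay between runs, against 0% at Pck1, Rxrg and Nr1i3. Estimates below 0 were set to 0, as at Pck1, Rxrg and Nr1i3, and these shares were not tested.

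Whether the maternal difference depended on the diet after weaning was tested with the LF-weaned animals (10 LL and 9 HL, LL from LF dams and HL from HF dams). No locus and 0 of 282 CpGs (0%) had an adjusted interaction p under 0.05 (permutation of residuals, smallest adjusted p = 0.649 at loci and 0.641 at CpGs). Without adjustment 19 CpGs, 6.74%, and 1 locus, 4.76%, were under 0.05. Most of the 19 CpGs lay in that locus, so they are not separate results. That locus was Plagl1, where HH minus LH was -0.49 points and HL minus LL -5.81 points (47.7% ± 3.53 against 53.5% ± 4.04), an interaction of 5.32 points (permutation p = 0.0338, adjusted p = 0.649). At Pck1 the difference between offspring of HF and LF dams was -3.53 points after HF and -6.87 points after LF weaning (interaction p = 0.393 by permutation). LL animals had 28.2% ± 8.52 at Pck1 and HL animals 21.4% ± 2.70. The LF-weaned groups had a Rxrg level of 11.4% ± 1.88 (LL) and 11.3% ± 1.86 (HL), with SDs near that of HH rather than that of LH, a comparison that was not tested. The LH SD of 6.36 included the animals read least deeply, and was 3.86 with at least 1000 reads required.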

How the data were processed

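Liver DNA of 9-week-old male mice was treated with bisulfite, amplified with a panel of primer pairs and sequenced. The authors aligned the reads with Bismark (version not given in the sources used here) to mm9, as the submitters' processing notes name both. They deposited, for each animal and CpG, the counts of methylated and total reads, with the methylated fraction in a second table. Each deposited total above 0 was at least 100 reads. Coordinates refer to NCBIM37, in which all 300 positions lie in a CpG, with GENCODE M1 genes. The exact position and sequence of Lepr are not reported here. Of the 40 animals in the labels, 39 had values, and 1 HL animal was not analysed here.

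The level was computed as 100 times methylated over all reads. CpGs within 1000 bp formed 1 locus, and a locus level needed values at no fewer than 50% of its tested CpGs. Where HH and LH each had 10 values the groups were compared by Student's t-test, otherwise by an exact permutation test (double the smaller tail), two-sided, with Benjamini-Hochberg adjustment. The interaction was tested by 100000 permutations of residuals. CpGs named in the text had an unadjusted p under 0.05, the largest difference, or the highest or lowest mean, and all loci with values in both groups were named. CpGs named for other reasons (other CpGs of Pck1, Lep, Lepr and Nr1i2) were chosen after their values were seen. The members, lists and gene groups were chosen with earlier results of these data known. The tests were also run on simulated reads. Differences were planted only at CpGs of intermediate level and each CpG was drawn by itself, so the simulation cannot speak for the low loci. The simulated spread between animals was also capped, below the spread seen at some CpGs of Pck1 and Rxrg. A difference was thus easier to find there than in the data. Alternatives were other tests, filters, coverage minima of 1, 100 and 1000 reads, reads summed over a locus, runs of animal numbers, and leaving out each animal. The 1000-read minimum in the spread test, and the median centring of the SD ratio, were chosen after seeing the data. Where nothing states that animals came from separate litters, p-values measure the spread between these animals. Python 3.11.15, scipy 1.17.1, R 4.3.3 and limma 3.58.1 were used.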

Additional observations from a re-analysis of the deposited data

Results flagged for a closer look

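Of 66 groups of values examined for an animal far from the rest, 6 held one, where chance alone gives about 1 in 20, or 3.3. At Ebp HH replicate 1 stood at 20.8% with the next HH animal at 1.03%, and LH replicate 5 at 1.59% with the next LH animal at 1.06%. The coding exon of Irs1 was at 91.7% in LH replicate 7, and the next lowest LH animal was at 94.3%. Pck2 was at 0.478% in HH replicate 7 with the next lowest at 0.677%. Nr1h3 was at 2.78% in HH replicate 5 with the next highest at 1.90%. The median depth of LH replicate 10 was 12920 reads per CpG, and the next LH animal had 8894.

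Some CpGs had too few animals to be tested but carried methylated reads. The imprinted gene Igf2 had values at 11 CpGs in 5 HH and 10 LH animals, with a mean of 3.58% over CpGs and animals. The 5 HH animals ran from 2.61% to 4.09% and the 10 LH animals from 2.99% to 4.27%. An isolated CpG (chromosome 4, 136020243, nearest gene 6030445D17Rik) had a mean of 10.8% in 2 HH and 1 LH animals, with 44 methylated of 388 reads (95% Wilson interval 8.56 to 14.9%, counting error only), and all its counts were even, so this interval would be too narrow if a fragment was counted more than once. The untested CpGs of Rxra had a mean of 1.0004% and that of Nr1h3 one of 0.769%.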

How the results depend on the processing

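No CpG and no locus level passed the adjusted threshold under any of the alternatives run, leaving out each animal included, of which minima of 1 and 100 reads kept the same values. No paired analysis was possible because the groups share no replicate numbers that the labels tie to a litter or batch. The count of CpGs with an unadjusted p under 0.05, 7 in the report, was 15 with the quasi-binomial model of reads, and 4 to 11 on leaving out 1 animal (4 without HH replicate 4 or LH replicate 3, 11 without LH replicate 4). For loci the count was 0 to 1, the 1 arising without LH replicate 2, 7 or 10. The spread test, with 0 loci in the report, gave 1 past the adjusted threshold with the log ratio of SDs and deviations from group means (Ebp) and 2 at an unadjusted exact permutation p under 0.05 (Ebp, and Pparg at 0.0406). The permuted deviations were then centred on group medians instead, a change made after those results were seen, which gave 0 past the adjusted threshold and 1 unadjusted, Pparg (exact permutation p = 0.048). With at least 1000 reads, also chosen after seeing the data, both counts were 0. Directions reversed with reads summed in the quasi-binomial model at Srebf1 (-0.0013 points) and Lepr (-0.0204), on the log2 scale of limma at Insig2 (-0.0092) and Pck2 (0.0442), and over runs of animal numbers at Srebf2 (-0.0101 points) and Peg3 (0.34). Leaving out 1 animal gave ranges that crossed 0 at Ebp (-0.0913 to 2.15 points), the coding exon of Irs1 (-0.53 to 0.0604), Pck2 (-0.0546 to 0.0170), Peg3 (-0.64 to 0.58), Plagl1 (-1.03 to 0.50), Rxra (-0.0938 to 0.0404), Srebf2 (-0.0132 to 0.0445) and Nr1i2_2 (-0.0668 to 0.18). The cause was not tested. Of 21 loci, 11 kept their direction under all alternatives run, among them Pck1 (-4.43 to -1.93 points without 1 animal), Rxrg (-3.19 to -0.68) and Nr1i3 (-2.82 to -0.97). Depth limits Rxra, Nr1h3, Irs1_b and Pparg, with a median of 222 to 557 reads.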
